A study of Mus musculus with 2 samples.

Results

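Single-exon Genomic models are unspliced stretches inside annotated genes to which long reads of the novelty class Genomic were assigned. They were chosen from the tables of transcript models as those with novelty class Genomic, 1 exon, an Ensembl mouse gene and 10 or more reads in a library, and 1785 of 244861 models met this rule: 392 of 107755 in replicate 1 and 1393 of 137106 in replicate 2. Their read counts chose them and are therefore given as a description with no test. Each library was numbered and modelled separately, so a place in a gene can hold 1 member in each library. The data are long-read RNA sequencing of total RNA from the adrenal gland of B6CASTF1/J mice (an F1 hybrid), male and aged 10 days. All samples form 1 group with 2 biological replicates, without a treatment or a second genotype. The labels give 1 µg of starting RNA for replicate 2, name spike-in RNAs for both, and give both libraries 1 donor while naming the animal of replicate 2 in differing ways. It is therefore unclear if they stem from separate animals, and every comparison below is between 2 libraries, not between conditions.

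TALON, the program named in the deposited annotations, compares each long read with the introns of annotated transcripts. A read that carries part of an annotated intron chain is an incomplete splice match (ISM), and a read inside a gene that cannot be placed on its chain is called Genomic. Models of 1 exon carry no intron, yet some were classed ISM and others Genomic in these data. What divides them was not tested. A read with no intron can be a piece of 1 exon, a transcript that kept its introns, a precursor RNA, a copy of another locus, or a cDNA that was primed on a run of A inside an RNA, since poly(A) priming starts most long-read cDNA. The adrenal gland joins a cortex, which makes steroids from cholesterol, with a medulla of chromaffin cells, which make catecholamines.

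The sequences after the 3' ends of members are shown first because a run of A past an end that no annotation records is the feature that poly(A) priming inside an RNA would leave. Each line gives the 20 bases that follow the end in the direction of transcription, from GENCODE M21 transcripts on mm10, with A in capitals. The first 5 are among the most-read members of replicate 2 that end over 50 bases from any annotated transcript end and have 12 or more A in this window, the sixth is a steroidogenic gene in replicate 1, and the last 2 are the most-read members of replicate 2 that end so far from the annotation before a window with few A.
Gm43126: AAAAAAAAAAAAAcAAAAAA
Klf9: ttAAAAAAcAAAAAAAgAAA
Gm20659: AAAAAAAAAAAAAAAAAAAA
Chchd4: ttAAAAAAAAAggAAAAAtt
Rab10os: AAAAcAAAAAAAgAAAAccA
Cyp11b1: ctAAAtAAAtAgcAAAgAAA
Star: AtAgAtgggtAgtAgttctt
Slc25a4: tctccctgcccttAttAAct
The Gm43126 window lies at chr6:127128828-127128847 on the plus strand and the Gm20659 window at chr11:101972951-101972970 on the plus strand. That of Klf9 lies at chr19:23166470-23166489 (plus strand), that of Chchd4 at chr6:91463842-91463861 (minus strand) and that of Rab10os at chr12:3249246-3249265 (plus strand). The Cyp11b1 window lies at chr15:74834567-74834586 (minus strand), the Star window at chr8:25815312-25815331 (plus strand) and the Slc25a4 window at chr8:46207148-46207167 (minus strand). The windows hold 19, 16, 20, 14, 16, 13, 5 and 3 A in the order of the lines.

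The libraries differed in depth and in how many of their reads were Genomic. Annotated genes had 927914 reads in replicate 1 and 1303420 in replicate 2. Single-exon Genomic models with any number of reads took 2.42% (95% Clopper-Pearson interval 2.39 to 2.45%) and 6.86% (6.82 to 6.90%) of them. These intervals and all below cover counting error only, as PCR copies are not independent molecules. Markers of the labelled tissue were present in both libraries: Cyp21a1 had 8043 and 3568 CPM (counts per 1000000 gene reads), Star 4392 and 2985, Chga 3898 and 2223 and Th 2317 and 1029. Cyp11b1 had 5061 and 2380, Dbh 295 and 133, Nr5a1 481 and 406, Cyp11a1 7423 and 7442 and Pnmt 639 and 707. These values count all reads of a gene, also those on members, which for Cyp11a1 were 5222 of 9700 in replicate 2. They show presence, and no difference between the libraries is read from them. Transcripts of other tissues were present too. Genes of hepatocyte secreted proteins took 16449 and 60928 reads, and genes of brown fat and adipocytes 13628 and 20749.

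The members held 8964 reads in replicate 1 and 62258 in replicate 2, or 0.966% and 4.78% of gene reads. They were 39.96% and 69.6% of all reads on single-exon Genomic models, the rest being spread over models of fewer than 10 reads. At the threshold itself, 57 models of replicate 1 had 9 reads and 49 had 10, and in replicate 2 these were 196 and 152. Members lay in 386 genes in replicate 1 and 1341 in replicate 2, of which 273 were the same genes (70.7% of the first and 20.4% of the second). Protein-coding genes held 95.4% and 95.7% of them. A few genes carried much of the signal: the 3 with most member reads held 9.94% of member reads in replicate 1 and 23.8% in replicate 2. A member was also more often found in a gene with many reads. Of genes with 1000 reads or more in the library, 26.1% (17.5 to 36.3%) and 43.4% (36.0 to 51.1%) held one, against 3.09% (2.70 to 3.52%) and 9.36% (8.71 to 10.0%) of genes with 10 to 99 reads.

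Most members lay inside the last exon of their gene. Location was read against the annotated transcript of the gene with most reads. In replicate 1, 248 of 392 members (63.3%, 58.3 to 68.0%) and in replicate 2, 947 of 1393 (68.0%, 65.5 to 70.4%) lay within the last exon. A further 44 (11.2%, 8.28 to 14.8%) and 105 (7.54%, 6.21 to 9.05%) covered at least 1 whole intron, 22 (5.61%) and 60 (4.31%) ran across an exon-intron edge without covering an intron, and 9 (2.30%) and 48 (3.45%) lay wholly inside an intron. Within another exon of that transcript lay 1 and 10. Against the joined exons of all annotated transcripts more did, among them the last-exon members of Lpl, Fga, Trf and Hnrnpa2b1. The remaining 68 (17.3%) and 223 (16.01%) were partly outside the reference transcript, and 40 and 138 of these lay within exons of other annotated transcripts of the gene. Single-exon ISM models of 10 or more reads were more concentrated in the last exon, with 165 of 179 (92.2%, 87.2 to 95.7%) and 681 of 748 (91.0%, 88.8 to 93.0%), and 3 and 3 of them covered a whole intron.

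**Figure D1:**
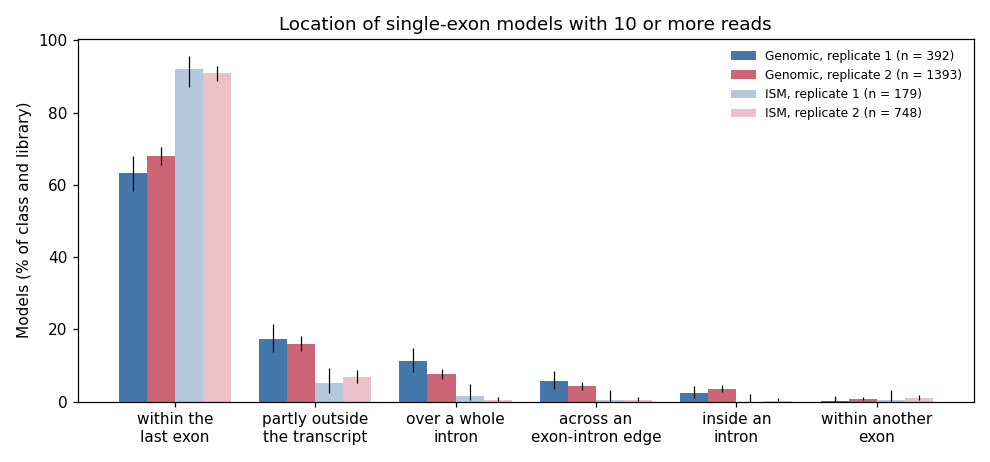
Share of single-exon models with 10 or more reads in each location (x axis) as percent of the class and library (y axis), for Genomic models (full colour) and ISM models (pale) of replicates 1 (blue) and 2 (red); lines are 95% Clopper-Pearson intervals. Last exons hold 63.3% and 68.0% of Genomic models and 92.2% and 91.0% of ISM models, and the classes with intron sequence are almost all Genomic.

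Within the last exon the members were pieces and not whole exons. They covered a median of 61.6% of the exon in replicate 1 and 47.8% in replicate 2, and 0 of 248 and 0 of 947 covered it in full. Whole exons may have been placed in the class ISM, where most single-exon models had both ends on annotated exon boundaries. That was not tested, and the absence of whole exons is only a description of the class. Apoe, the apolipoprotein of lipid transport, had the most-read one: the same 354 bases at chr7:19696267-19696620 (minus strand, ending at the annotated end) held 439 reads in replicate 1 and 4468 in replicate 2. Mrpl30, a mitochondrial ribosomal protein, had 174 bases of its last exon at chr1:37898165-37898338 with 39 and 491 reads. Slc25a3, the mitochondrial phosphate carrier, had a member of 221 bases with 661 reads in replicate 2 and none in replicate 1, where 7 reads lay on its single-exon Genomic models. Kcnk3, a potassium channel of the outer cortex, had members of 1730 and 1797 bases with 199 and 358 reads.

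Members of replicate 1 were longer. Their median length was 1792.5 bases (middle 50% from 1016 to 2666), against 849 bases (212 to 1799) in replicate 2. The longest had 8012 and 5848 bases, and 72 of 392 and 148 of 1393 were longer than the spliced reference transcript. A second group of very short models stood apart from these: 20 members (5.10%) and 183 (13.1%) were under 50 bases, and 7 and 90 were exactly 1 base long. They held 379 of 8964 and 8377 of 62258 member reads.

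**Figure D2:**
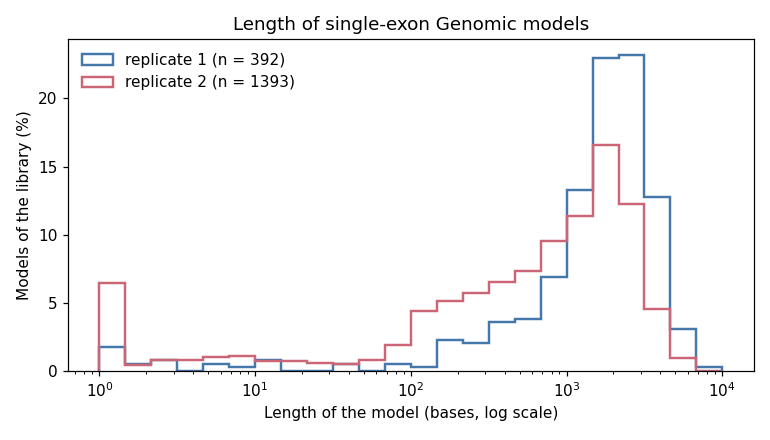
Length of single-exon Genomic members in bases (x axis, log scale) as percent of the 392 members of replicate 1 (blue) and the 1393 of replicate 2 (red). Both libraries have a main mode of long models, around the median of 1792.5 bases of replicate 1, replicate 2 has more members between 100 and 1000 bases, and 7 and 90 members of 1 base form the leftmost bar.

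A model of 1 base is shorter than any read it counts, so the deposited start and end of such a model are not the ends of its reads. Whether this holds for longer members was not tested. Rbp4, the plasma carrier of retinol, had the most-read short model: a member of 2 bases at chr19:38116629-38116630 held 48 reads in replicate 1 and 1522 in replicate 2. Members of 1 base were found in replicate 2 in Fads2, a fatty acid desaturase (307 reads), Thrsp, a regulator of lipid synthesis (263 reads), the mitochondrial chaperone Hspd1 (173 reads) and Plin1, the coat protein of fat droplets (111 reads). Lipe, the hormone-sensitive lipase that frees cholesterol for steroid synthesis, had 17 bases with 138 reads, and Rps27a, a ubiquitin fusion with a ribosomal protein, had 54 bases with 313 reads. The ends of short members fell on annotated positions: both ends equalled an annotated exon boundary in 17 of the 20 and 163 of the 183 under 50 bases.

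Over all members, ends fell on the annotation to the base far more than within a range of it. The 3' end equalled an annotated transcript end in 294 of 392 (75%) and 1049 of 1393 (75.3%), and widening this to 50 bases added only 6 and 24 members (300 and 1073). The 5' end equalled an exon boundary of some annotated transcript in 219 (55.9%) and 811 (58.2%). Both ends did so in 161 (41.1%, 36.2 to 46.1%) and 656 (47.1%, 44.4 to 49.8%), against 160 of 179 (89.4%, 83.9 to 93.5%) and 650 of 748 (86.9%, 84.3 to 89.2%) single-exon ISM models. Whether the ends were moved onto the annotation when the models were built was not tested. The hexamer AATAAA, the main poly(A) signal, was searched on the transcript strand in the last 50 bases of a window that ends at the 3' end of the member. It stood before 235 of 299 ends (78.6%) in replicate 1 and 768 of 1068 (71.9%) in replicate 2 that lay within 50 bases of an annotated end, and before 22 of 57 (38.6%) and 67 of 226 (29.6%) of the other ends. Of all windows of that length in the reference transcripts, 2.13% held it. Most of the near ends equalled an annotated end to the base (294 of 300 and 1049 of 1073). Their share therefore describes annotated ends as much as members.

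The members that covered whole introns lay almost without exception at the end of the gene. Of 44 and 105 such members, 42 and 102 covered the last intron, and 21 and 59 covered exactly 1 intron. The introns covered summed to a median of 875 bases per member in replicate 1 and 689 in replicate 2. The longest runs covered 7 introns.

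Cyp11a1 (ENSMUSG00000032323.13), the mitochondrial enzyme that cleaves the side chain of cholesterol and starts all steroid synthesis, held the most-read member. It ran over 2712 bases at chr9:58024312-58027023 on the plus strand, covered 3 introns including the last, ended at the annotated end, and had 5222 of the 9700 Cyp11a1 reads of replicate 2. Replicate 1 had 0 of 6888, which allows up to 3 reads. The covered introns span 1172 bases of the model, out of 1938 intron bases it holds. Slc25a5, the ADP/ATP carrier, had the opposite pattern, with 253 of 1312 reads in replicate 1 on a member that spans the reference transcript from its first to its last base (3157 bases, 3 introns) and 0 of 1811 in replicate 2. Gnas, which encodes the stimulatory G protein alpha subunit, had a member over 6 introns with 264 reads in replicate 2. Pnmt, which makes adrenaline, had members over 1 and 2 introns with 13 and 75 reads. Sdhb, the iron-sulfur subunit of respiratory complex II, had 149 reads in replicate 2 on a model over 1 intron of 1524 bases. The introns covered are those of the deposited models, and whether the reads themselves run over them was not tested.

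Ahsg and Star showed members that only cross an edge. Ahsg, the liver protein fetuin-A, had 5110 of 9428 reads in replicate 2 on a model of 719 bases, of which 631 are exon and 88 intron. Star, which carries cholesterol into mitochondria, had 746 of 3891 reads in replicate 2 on a model of 2693 bases at chr8:25812619-25815311 (plus strand). Of these bases 2539 are exon and 154 intron, and the model ends short of the nearest annotated end, with few A in the window shown above.

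Members inside introns were few, and many overlapped another gene. Of the 9 and 48, 3 and 28 overlapped another RefSeq gene spanning under 200000 bases (table for GRCm38.p6, either strand). Counted separately in GENCODE, 1 and 15 overlapped an exon of another gene on the same strand. Jarid2, a partner of the Polycomb repressive complex, had the most-read one: 249 bases at chr13:44869572-44869820 with 520 reads in replicate 2, where the gene had 532 in all and 3 on annotated transcripts. The 137-base member in Car1, a carbonic anhydrase, had 193 of 195 reads in replicate 2 and overlapped the processed pseudogene Gm16399. The member in AC154200.1 had all 118 reads of that gene and overlapped the processed pseudogene Oaz1-ps. In the lincRNA genes Gm49450 and Gm49325 the members overlapped exons of Tuba1a (87 reads) and Sumo3 (21 and 40 reads). Reads at such places cannot be divided between the gene named and the overlapping one, nor between a pseudogene and its parent gene.

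Abi1, a subunit of the actin-regulating WAVE complex, had an intron member in both libraries with similar counts. Replicate 1 had 133 reads on 1715 bases at chr2:23012916-23014630 and replicate 2 had 125 reads on 1910 bases at chr2:23012766-23014675, both on the minus strand and far before the annotated end. RefSeq lists Gm52502 there. Members held 133 of 160 Abi1 reads in replicate 1 (83.1%) and 138 of 163 in replicate 2 (84.7%), so gene-level counts of Abi1 rest mostly on this place. Usp50 had 19 of 21 and 177 of 178 reads on 259 bases that overlap the processed pseudogene Gm10774. Over all members, 68 of 1785 overlapped an exon of another gene on the same strand and 314 on the opposite strand.

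Few genes held single-exon models of both classes with 10 or more reads in a library. Replicate 1 had 386 genes with a member and 179 with a single-exon ISM model of 10 or more reads, and 3 had both. Replicate 2 had 1341 and 746, and 30 had both. Such ISM models were rare over all genes with reads too, with 179 of 15825 genes in replicate 1 and 746 of 17409 in replicate 2. The overlap was not tested against this share. Any single-exon ISM read at all was found in 14 of 386 (3.63%) and 153 of 1341 (11.4%) genes with a member. Within a gene the Genomic reads were gathered on 1 model: the most-read model held 90% or more of them in 348 of 386 and 1046 of 1341 genes.

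The class of a gene's single-exon reads also differed between libraries. The Star model described above has the same first and last base in both libraries, and was classed ISM with 426 reads in replicate 1 and Genomic with 746 reads in replicate 2. It is the only such place with 10 or more reads in both. Cyp11a1 had 867 single-exon ISM reads and 0 Genomic in replicate 1, and 0 ISM and 5227 Genomic in replicate 2. Ahsg had 356 ISM and 3 Genomic reads and then 0 and 5117. Hsd3b1, the enzyme that makes progesterone, had 301 ISM and 0 Genomic reads and then 0 and 420. Fads2 (81 and 0, then 0 and 317) and Idh3b, a subunit of isocitrate dehydrogenase (34 and 0, then 0 and 216), showed the same order.

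Other genes showed the opposite order. Slc25a5 had 0 ISM and 253 Genomic reads in replicate 1 and 506 ISM and 0 Genomic in replicate 2. The granins of chromaffin granules did the same, Chga with 0 and 66 and then 248 and 6, Scg2 with 0 and 27 and then 99 and 0. Kcnk3 was an exception that held both classes in both libraries, with 212 ISM and 200 Genomic reads and then 153 and 361. Of the 392 members of replicate 1, 55 (14.03%) lay in a gene with single-exon ISM models of 10 or more reads and no such Genomic model in replicate 2, and of the 1393 of replicate 2, 78 (5.60%) did in replicate 1. A gene without a member therefore does not lack single-exon reads.

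Counted together, the single-exon reads of most named genes took a larger share in replicate 2. They were 12.6% of Cyp11a1 reads in replicate 1 and 53.9% in replicate 2, 23.5% and 54.3% for Ahsg, 11.0% and 19.4% for Star, 5.90% and 10.7% for Hsd3b1, 19.3% and 27.9% for Slc25a5, and 0.673% and 38.7% for Slc25a3. Klf9, a zinc-finger regulator that responds to steroids, lay the other way with 85.2% and 50%, and Abi1 was level at 88.1% and 89.0%. Over the 1145 genes with a member whose reads numbered at least 20 in both libraries, the median share was 5.26% and 20.0%, and 1049 had the larger share in replicate 2. The 5197 genes without a member had medians of 0.645% and 4.00%, and 3810 had the larger share in replicate 2. These shares contain the reads that chose the members and carry no test.

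**Figure D3:**
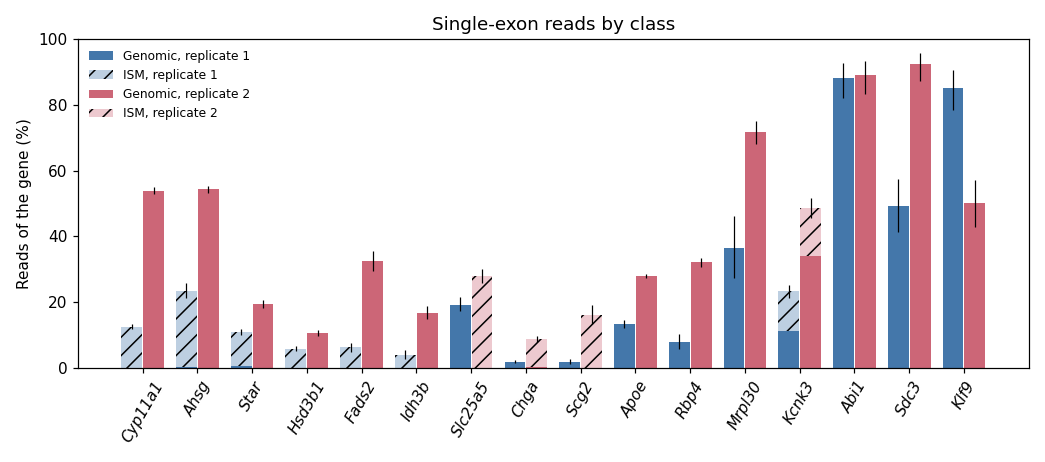
Single-exon reads as percent of all reads of the gene (y axis) in 16 named genes (x axis), stacked by class: Genomic (full colour) and ISM (pale, hatched), for replicate 1 (blue) and replicate 2 (red); lines are 95% Clopper-Pearson intervals of the sum. Cyp11a1, Ahsg, Star, Hsd3b1, Fads2 and Idh3b are nearly all ISM in replicate 1 and Genomic in replicate 2, Slc25a5, Chga and Scg2 the reverse, and Kcnk3 holds both classes in both.

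Part of the members had a Genomic model at the same place in the other library. A model of the same class and gene that shared 50% or more of each model's bases was found for 231 of 392 members of replicate 1 (58.9%, 53.9 to 63.8%) and 620 of 1393 of replicate 2 (44.5%, 41.9 to 47.2%). Admitting ISM models of the other library added 30 and 139. With 10 or more reads in both libraries there were 189 pairs. Of these, 80 had the same first and last base, 157 the same 3' end and 183 the same location, and 124 lay in the last exon.

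The most-read pairs besides Apoe, Kcnk3 and Abi1 included several last-exon models. Sdc3, the cell-surface proteoglycan syndecan 3, had 3671 bases with 78 and 154 reads. Ywhag, a 14-3-3 protein, had 60 and 202 reads, Marcks, a kinase C substrate, 54 and 88, Lynx1, a modulator of nicotinic receptors, 49 and 79, and Mrfap1 47 and 52. In CPM, 114 of the 189 pairs were higher in replicate 2, and in reads 143 were. Apoe, Rbp4 and Mrpl30 were among those with far more reads in replicate 2, while Abi1 had about equal reads.

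**Figure D4:**
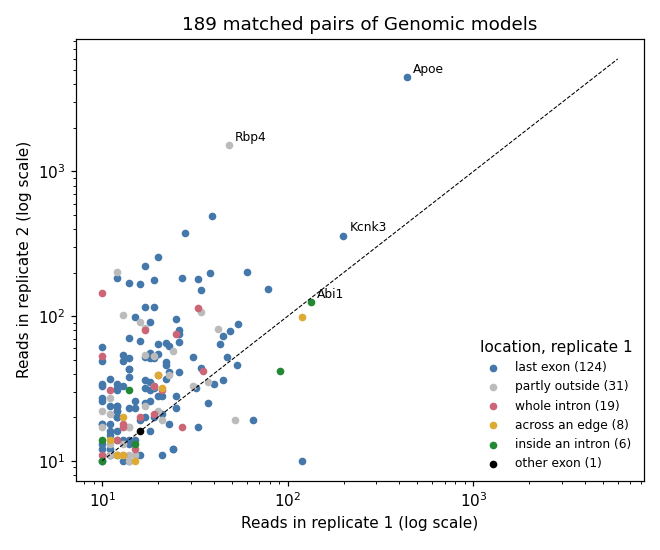
Reads of 189 matched pairs of Genomic members in replicate 1 (x axis, log scale) and replicate 2 (y axis, log scale), 1 point per pair, coloured by location in replicate 1; the dashed line marks equal reads. Most points lie above the line (143 of 189), Apoe (439 and 4468 reads) and Rbp4 (48 and 1522) stand highest, and Abi1 lies near the line.

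Runs of A followed part of the ends that no annotation records. Such ends, over 50 bases from any annotated transcript end, numbered 92 and 320, and 58 and 217 of them were followed by 20 bases of 1 annotated exon, where the sequence could be read. A window with 12 or more A followed 10 of 58 (17.2%, 8.59 to 29.4%) in replicate 1 and 46 of 217 (21.2%, 15.96 to 27.2%) in replicate 2. Of ends near an annotated end, too, only those followed by 20 bases of 1 annotated exon could be read, a minority of such ends. Such a window followed 4 of 43 (9.30%, 2.59 to 22.1%) and 17 of 250 (6.80%, 4.01 to 10.7%) of these. It made up 1.03% of all 20-base windows of the reference transcripts. By location in replicate 2, A-rich windows followed 16 of 127 last-exon ends, 15 of 44 ends of members partly outside the reference transcript and 5 of 11 ends inside introns. Sequence was read from annotated exons of either strand, while the share over all windows counts the transcript strand only. All 5 of these intron ends (Epo, Gm26714, Gm15337, Gm44686 and Gm26733) belong to members that overlap an exon of another gene on the opposite strand. They do not stand for introns in general. The other ends, including Star with 746 reads and Slc25a4, the second ADP/ATP carrier, with 265 reads, had no such run. Single-exon ISM models had an A-rich window at 2 of 16 and 12 of 64 ends of this kind. Priming itself was not tested.

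Of the members shown at the start, Gm43126 had 34 and 106 reads and Gm20659 had 42 and 82 reads on the same bases in both libraries. Both are genes on the strand opposite a protein-coding gene (Ccnd2 and Dusp3). Klf9 had its 88-read member only in replicate 2. Members that end at its annotated end were in both libraries, with 119 reads on 2664 bases in replicate 1 and 10 reads on 1666 bases in replicate 2. Cyp11b1, which makes corticosterone, had 2 members in replicate 1 with 68 and 46 reads and 1 in replicate 2 with 279. Chchd4 and Rab10os had 48 and 47 reads in replicate 2.

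The base composition changed at the end itself. Among 254 unannotated ends with 40 bases of exon on each side, the last base of the member was A in 13.0% and the next base in 49.6%, and A stood at 43.7% of second bases and 33.9% of ninth bases. Among the 253 ends near an annotated end that could be read in the same way, the last base was A in 48.2% and the next in 28.9%. The A-rich stretch centred near 20 bases before the annotated ends, where AATAAA stands, was weaker at the unannotated ends.

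**Figure D5:**
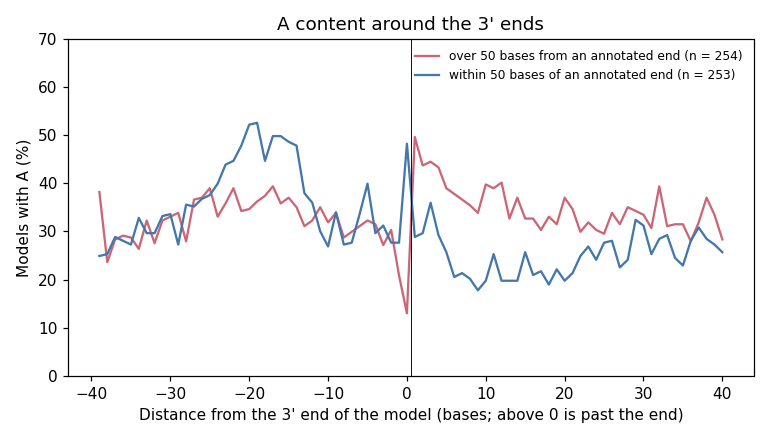
Percent of Genomic members with A (y axis) at each distance from the 3' end in bases (x axis, values above 0 are past the end), for 254 ends over 50 bases from an annotated transcript end (red) and 253 ends within 50 bases (blue). In the red line A is at 13.0% at the last base and reaches 49.6% at the next, and the blue line has its peak about 20 bases before the end.

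Several genes of steroid synthesis carried members. Of the 20 genes of that list, 5 had a member in replicate 1 and 10 in replicate 2 (11 in either), against 386 of 15825 (2.44%) and 1341 of 17409 (7.70%) of all genes with reads. Members took 213 of 35468 reads of the list in replicate 1 (0.601%) and 7169 of 33869 in replicate 2 (21.2%), most of them in Cyp11a1. The list is rich in genes with many reads, where members were more often found. Besides Cyp11a1, Star, Hsd3b1, Lipe and Cyp11b1, Cyp21a1, the 21-hydroxylase, had 31 and 169 member reads, the lipoprotein receptor Scarb1 had 13 and 118, the electron donor Fdxr had 0 and 37, the ACTH receptor partner Mrap had 0 and 32, and the reductase Akr1b7 had 0 and 13. Nr5a1, the master regulator of these genes, had 37 reads on 5 bases in replicate 1 and 0 in replicate 2.

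In the other lists, as in the steroid list, a member in either library is set beside 1454 of 18580 genes with reads. Of 20 chromaffin genes 6 had a member, with 106 of 13050 and 179 of 9898 reads (0.812% and 1.81%): Chga, Scg2, Pnmt, Th (0 and 33 reads), the vesicle enzyme Dbh (0 and 27) and the electron carrier Cyb561 (0 and 44). Of 11 genes of hepatocyte secreted proteins 3 did, all in replicate 2: Ahsg, the fibrinogen chain Fga (123 reads) and transferrin, Trf (102 of 23130 reads). Of 10 genes of brown fat and adipocytes 5 did, among them Plin1 and Adipoq (0 and 43 reads), while the uncoupling protein Ucp1 had only 15 of 4130 and 20 of 3815 reads. Of 15 respiratory chain genes 3 did, and of 15 nuclear and imprinted noncoding RNAs only Meg3 did (35 of 204 reads in replicate 2).

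Genes known for retained introns also carried members. Of 20 such genes 10 had a member in either library, with 119 of 4219 reads (2.82%) and 237 of 4043 (5.86%). Their members were 4 in replicate 1, all in last exons, and 9 in replicate 2, of which 6 lay in last exons, 2 covered a whole intron and 1 crossed an exon-intron edge. Of all members 63.3% and 68.0% lay in last exons, and the list was not compared with them by a test. Ddx5, an RNA helicase, had 56 reads on 1194 bases of its last exon in replicate 1 and 69 reads on 1 base in replicate 2. Hnrnpa2b1, a splicing repressor, had the same 425 bases of the last exon with 37 and 25 reads, and Snrnp70, a protein of the U1 particle, the same 261 bases with 14 and 51. Srsf2 and Srsf3, splicing activators, had members only in replicate 2 (15 and 26 reads).

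In many genes the members were most of what was counted. Members took a median of 25% of the reads of a gene that had one, in both libraries (middle 50% from 7.82 to 57.1% and from 11.1 to 52.0%), and 50% or more in 109 of 386 (28.2%) and 355 of 1341 (26.5%). In 44 and 155 of these genes no read lay on an annotated transcript. Among genes with 50 or more reads in both libraries, large mean shares besides that of Abi1 were those of Lynx1 (49 of 54 and 79 of 107 reads), the focal adhesion protein Tns1 (51 of 59 and 90 of 118), Ywhag (60 of 80 and 202 of 287), Sdc3 (78 of 158 and 154 of 167), Klf9 (119 of 142 and 98 of 196), the signalling inhibitor Tob2 (45 of 75 and 73 of 97), the repressor Zbtb7a (65 of 84 and 29 of 57) and the caveolar coat protein Cavin1 (59 of 107 and 96 of 150).

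The reads of these genes outside Genomic models were compared between the libraries with Fisher's exact test, adjusted by the Benjamini-Hochberg method over 10956 genes. Of all genes tested 36.9% passed an adjusted p of 0.05, 13.3% higher and 23.6% lower in replicate 2. Of the 1312 tested genes with a member, 216 (16.5%) were higher and 540 (41.2%) lower, with a median log2 ratio of -0.37 against -0.28 over all genes. With TMM scaling these medians were -0.08 and 0.01, and the counts became 1999 higher and 1341 lower of all genes (1460 and 2582 without it) and 319 higher and 360 lower of genes with a member. Genes with a member had a median of 160 reads over both libraries against 62 over all genes, and the test passes more genes at higher counts. Leaving out Genomic reads also takes reads from genes with a member mainly in replicate 2, where 1341 genes had one against 386 in replicate 1. Their counts are therefore tied to the rule that chose them, and nothing is read from their difference from all genes. Totals over all reads of a gene contain the reads that chose the members, and no test is read from them.

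Named genes with a member lay on both sides. Cyp11a1 had 6888 and 4473 reads outside Genomic models, a log2 ratio of -1.05. Its count in replicate 1 includes 867 single-exon ISM reads, whereas 5227 single-exon Genomic reads were left out in replicate 2. The same held for Star (427 and 754), Hsd3b1 (301 and 420) and Ahsg (356 and 5117). In such genes the ratio is tied to the class of the single-exon reads, and no change of the whole gene is read from it. Slc25a3 had 1033 and 1048, a log2 ratio of -0.40 (adjusted p = 3.46e-09, Fisher's exact test), which no longer passed with TMM scaling (-0.11, adjusted p = 0.172). Star had 4054 and 3137 (-0.79, adjusted p = 2.09e-117), Hsd3b1 5098 and 3518 (-0.96, adjusted p = 3.86e-204) and Kcnk3 1567 and 697 (-1.59, adjusted p = 3.27e-140), and these were lower in replicate 2. Ahsg (1526 and 4311, log2 ratio 1.08, adjusted p = 1.67e-150) and Mrpl30 (68 and 195, 1.09, adjusted p = 1.70e-07) were higher. Jarid2 had 10 and 12 reads outside Genomic models (-0.17, adjusted p = 0.910).

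By list, reads outside Genomic models were lower in replicate 2 for 13 and higher for 4 of 20 steroidogenesis genes (median log2 ratio -0.63) and lower for 8 and higher for 2 of 19 chromaffin genes (-0.72). They were higher for 10 of 10 tested genes of hepatocyte secreted proteins (1.42), higher for 6 and lower for 2 of 10 fat genes (0.49), higher for 4 and lower for 11 of 20 retained-intron genes (-0.54), higher for 4 and lower for 1 of 9 noncoding RNAs (0.54) and higher for 7 and lower for 3 of 15 respiratory chain genes (0.13). The median over all genes was -0.28. Reads on members were left out, 213 and 7169 of them in the steroidogenesis list, so these counts are tied in part to the class that chose the members. With TMM scaling, which moved that median to 0.01, no list median changed sign, and the counts became 5 higher and 9 lower for steroidogenesis, 4 and 8 for chromaffin, 4 and 8 for retained-intron and 12 and 0 for respiratory chain genes, 7 and 2 for fat genes, 6 and 1 for noncoding RNAs and 10 and 0 for hepatocyte genes.

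The share of single-exon ISM reads among reads outside Genomic models was compared in the same way in 5983 genes, those where such reads numbered at least 20 in both libraries. Of all genes 10% passed, 8.67% higher and 1.37% lower in replicate 2. Of 971 genes with a member 66 were higher and 72 lower, and of 5012 without a member 453 were higher and 10 lower. Since a gene seldom held both classes in a library, this share is tied to the class that chose the members, and nothing is read from the difference. In Cyp11a1 it was 12.6% and 0% (adjusted p = 1.30e-195, Fisher's exact test) and in Slc25a5 0% and 27.9% (adjusted p = 7.73e-112). Spike-in RNAs, counted by the same method, had 1 Genomic read of 15215 in replicate 1 and 3 of 35155 in replicate 2. Whether they stand for genes was not tested, and no rate of Genomic reads in genes is read from them.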

How the data were processed

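The deposited tables hold counts, the raw number of long reads per transcript model, 1 table per library, with no normalization. The deposited tables and annotations also give, in the other unit used (bases, exons and 1-based mm10 positions), the length, number of exons and coordinates of each model. Per the file headers and the deposited README, models were made by TALON with GENCODE M21 on mm10; aligner and versions: not given in the sources used here. Reads on annotated genes summed to 927914 and 1303420 (all models 971827 and 1407511).

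Members were located against the most-read annotated transcript of their gene. Sequence came from GENCODE M21 transcripts, only where a window lay in 1 annotated exon of any gene on either strand. Of 20514 RefSeq GRCm38.p6 promoter ends read this way 20514 were equal. Intervals are Clopper-Pearson at 95%. Genes whose reads outside Genomic models summed to at least 10 were tested by two-sided Fisher's exact tests against all other gene reads, and the share of single-exon ISM reads in genes with 20 or more in each library, with Benjamini-Hochberg adjustment (scipy 1.17.1); 0.5 reads were added before log2 ratios. Scaling factors came from edgeR 4.0.16 (TMM) and DESeq2 1.42.0. The p-values measure reads of 2 libraries, not animals. Tables and plots were made in Python 3.11.15 (numpy 2.4.6, pandas 2.3.3, matplotlib 3.10.9) and R 4.3.3, and the tests were checked on simulated data.

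The members, the 7 gene lists and the tests were chosen with earlier results of these data known. Named genes are the 20 with most member reads, the 5 most-read members per location, the 10 most-read matched pairs, up to 6 genes per list, the 10 with the largest mean share at 50 or more reads in both libraries and the 5 most-read members over an exon of another gene on the same strand. A gene that this rule names is not reported here. Other genes (Thrsp, Hspd1, Slc25a4, Gm43126, Gm20659, Chchd4, Rab10os, Gm49325, Gm49450, Nr5a1, Mrap, Fdxr, Scarb1 and Akr1b7) were named after their values were seen. The AATAAA search, the use of transcript sequence, the comparison of ISM with Genomic classes and the alternatives marked as added were also chosen after the data were seen.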

Additional observations from a re-analysis of the deposited data

How the results depend on the processing

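No paired analysis was possible because all samples form 1 group. The minimum of reads set the number of members: 3961 at 5 reads and 752 at 20 reads against 1785, with 392 to 1393 by library, while a minimum at equal CPM (added after seeing the data) left 1270. Each location share is for both libraries together, then by library. Last exon was 66.9% (63.3 to 68.0%), 72.9% with the exons of all transcripts joined and 56.8% weighted by reads. With exons joined, more members also lay within another exon. Junction was 4.59% (4.31 to 5.61%) and 11.2% weighted; whole intron 8.35% (7.54 to 11.2%) and 14.2% weighted; intron 3.19% (2.30 to 3.45%) and 4.43% joined; beyond the transcript 16.3% (16.01 to 17.3%), 3.59% joined and 14.3% weighted. Leaving out members under 50 bases, an added alternative, moved no location share by more than the difference between libraries. The 47.7% of members matched (44.5 to 58.9%) became 33.6% at an overlap of 80%, 72.9% at any overlap and 61.1% by 3' ends. The A-rich share of 20.4% (17.2 to 21.2%) became 25.1% at 10 A, 16.7% at 14 A, 26.5% at 6 of 10 bases and 17.3% weighted by reads; it was planned on a genome and run on transcript sequence instead. Ends near an annotated end were 76.9% (76.5 to 77.0%). With Genomic and Known reads alone as denominator, Genomic shares of 2.42% and 6.86% became 2.94% and 8.49%.

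Genes lower in replicate 2 outside Genomic models numbered 1341 with TMM and 1363 with DESeq2 factors, not 2582, because scaling moved the median of all genes from -0.28 to 0.0090 and 7.17e-06. Genes with a member higher in replicate 2 numbered 332 with all reads, not 216. All-read totals contain the reads that chose the members, so nothing is read from values with all reads. The log2 ratio turned to 0.0036 for Cyp11a1 and 0.23 for Slc25a3 with all reads, and for Jarid2 to 0.12 with TMM, 0.11 with DESeq2 and 4.52 with all reads. Members at 10 to 20 reads have wide intervals.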
